A study of Mus musculus with 90 samples.

Results

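The copines are a family of calcium-dependent, phospholipid-binding proteins, and the genes Cpne1 to Cpne9 were taken from the deposited table by name. All 9 were found among the 19962 genes measured. The family was picked with earlier results of these data in view, for the level of Cpne4 in CA3 against CA1 and of Cpne7 between p16 high and p16 low areas. Those contrasts are therefore described here without a test.

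A copine carries a pair of C2 domains, which bind membrane phospholipids when calcium rises, followed by a von Willebrand factor A-type domain that binds other proteins. Copines thus move from cytosol to membrane on a calcium signal and carry partner proteins with them. In the brain the best known member is Cpne6, also called N-copine, which moves to postsynaptic membranes on calcium entry and takes part in the remodelling of dendritic spines.

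Expression was measured in formalin-fixed, paraffin-embedded mouse brain, cut at 5 µm, with the GeoMx Digital Spatial Profiler and its mouse Whole Transcriptome Atlas probes. In this assay light frees the tags of the probes bound in an outlined area of interest (AOI), and the tags are then counted by sequencing. The 6 mice of the CSS group had been exposed to chronic social stress and the 4 ctrl mice were controls; the sources used here name no strain, age or sex. AOIs lay in hippocampal CA1 and CA3, motor cortex (MC), somatosensory cortex (SS) and choroid plexus (CP), and each was labelled p16 high or p16 low, 46 and 44 of the 90. How the p16 label was given to an AOI is also not in these sources. An AOI holds many cells, so fewer cells of a type and less RNA per cell cannot be told apart.

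The deposited signal had been scaled by the authors, with the same gene median, 22.1, in every AOI. Between 184469 and 2098984 probe counts lay behind an AOI, and the negative control probe stood at 10.8 to 18.1. All 9 copines had a mean signal above that of the median gene, and each exceeded the negative probe in at least 70 of 90 AOIs (Cpne9), with Cpne1 above it in all 90. Over all genes, 22.7% of the values did not exceed the probe, so Cpne9 and Cpne8 (72 AOIs) were near the share of all genes. The labels CP, CA1 and CA3 were met by their markers. A list of 6 choroid plexus epithelial genes summed to at least 49378 in every CP AOI and to at most 647 elsewhere, and a list of 6 CA1 pyramidal genes to at least 1465 in CA1 and at most 497 elsewhere. The 4 CA3 pyramidal genes summed to 405 to 1081 in CA3 and to at most 270 elsewhere, with the lowest CA3 sums, 405 and 552, in the AOIs of ctrl mouse 1175. Lists of cortical layer genes did not set MC and SS apart. The 6 deep layer genes had a median sum of 330 in MC and 303 in SS against 538 in CA3. The 5 upper layer genes had 150 in MC and 152 in SS against 183 in CP.

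Promoter sequence was available for 6 of the 9 copines (RefSeq, build GRCm38.p6, which is mm10). The 250 bases before the transcription start are shown for Cpne5, Cpne8 and Cpne9, because Cpne5 and Cpne9 varied together between CA3 AOIs while Cpne8 varied the other way, as given further on. They read 5′ to 3′ on the gene's strand, with GC boxes (GGGCGG on either strand) in capitals.
Cpne5: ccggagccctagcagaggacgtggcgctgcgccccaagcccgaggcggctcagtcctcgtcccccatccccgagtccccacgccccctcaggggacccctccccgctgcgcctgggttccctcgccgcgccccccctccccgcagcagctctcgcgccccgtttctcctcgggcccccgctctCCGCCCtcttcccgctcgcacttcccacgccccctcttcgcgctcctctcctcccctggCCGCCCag
Cpne8: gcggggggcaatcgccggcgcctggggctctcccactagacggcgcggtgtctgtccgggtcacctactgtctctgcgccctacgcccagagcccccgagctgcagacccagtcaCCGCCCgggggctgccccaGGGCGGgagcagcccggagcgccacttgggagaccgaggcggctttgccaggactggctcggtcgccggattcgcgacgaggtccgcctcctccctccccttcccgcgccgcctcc
Cpne9: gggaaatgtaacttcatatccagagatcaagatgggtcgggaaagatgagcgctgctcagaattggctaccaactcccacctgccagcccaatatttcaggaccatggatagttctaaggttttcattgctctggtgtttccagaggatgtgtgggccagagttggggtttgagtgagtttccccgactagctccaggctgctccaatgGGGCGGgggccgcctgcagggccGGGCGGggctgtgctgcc
Cpne5 lies on chromosome 17 (minus strand) and its window is chr17:29237791-29238040. Cpne8 lies on chromosome 15 (minus strand), with the window chr15:90679389-90679638, and Cpne9 on chromosome 6 (plus strand), with chr6:113282057-113282306. The RefSeq gene of Cpne9 begins at 113282283, inside its window, so the start used here lies downstream of the gene's outermost base. The GC box nearer the end of that window also lies past this base. Each window held 2 GC boxes, a motif present in 32.7% of all 32851 windows of this length. None of the 3 held a cAMP response element (TGACGTCA, in 1.55% of all windows), an E-box of the form CACGTG (6.02%) or a TATA box (TATAAA, 12.4%), on either strand. The Cpne5 and Cpne8 windows were rich in G and C, at 76.4% and 74.4%, and the Cpne9 window stood at 56.4% against a median of 52.4% over all windows. Thus the pair that varied together differed in base composition, and Cpne5 was closer to Cpne8. A motif match is a description of the letters only.

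Most copines had a subregion, or a pair of them, of high signal, as the plot of copine signal per mouse shows. Between 36.6% (Cpne1) and 96.4% (Cpne6) of the variance of log2 signal over the 90 AOIs lay between subregions, 91.4% for Cpne4, 85.3% for Cpne7 and 84.1% for Cpne2. Levels of different genes are not compared, since each gene was read by its own probes. For Cpne1, 45.9% of the variance lay between mice within a subregion, more than between subregions.

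**Figure D1:**
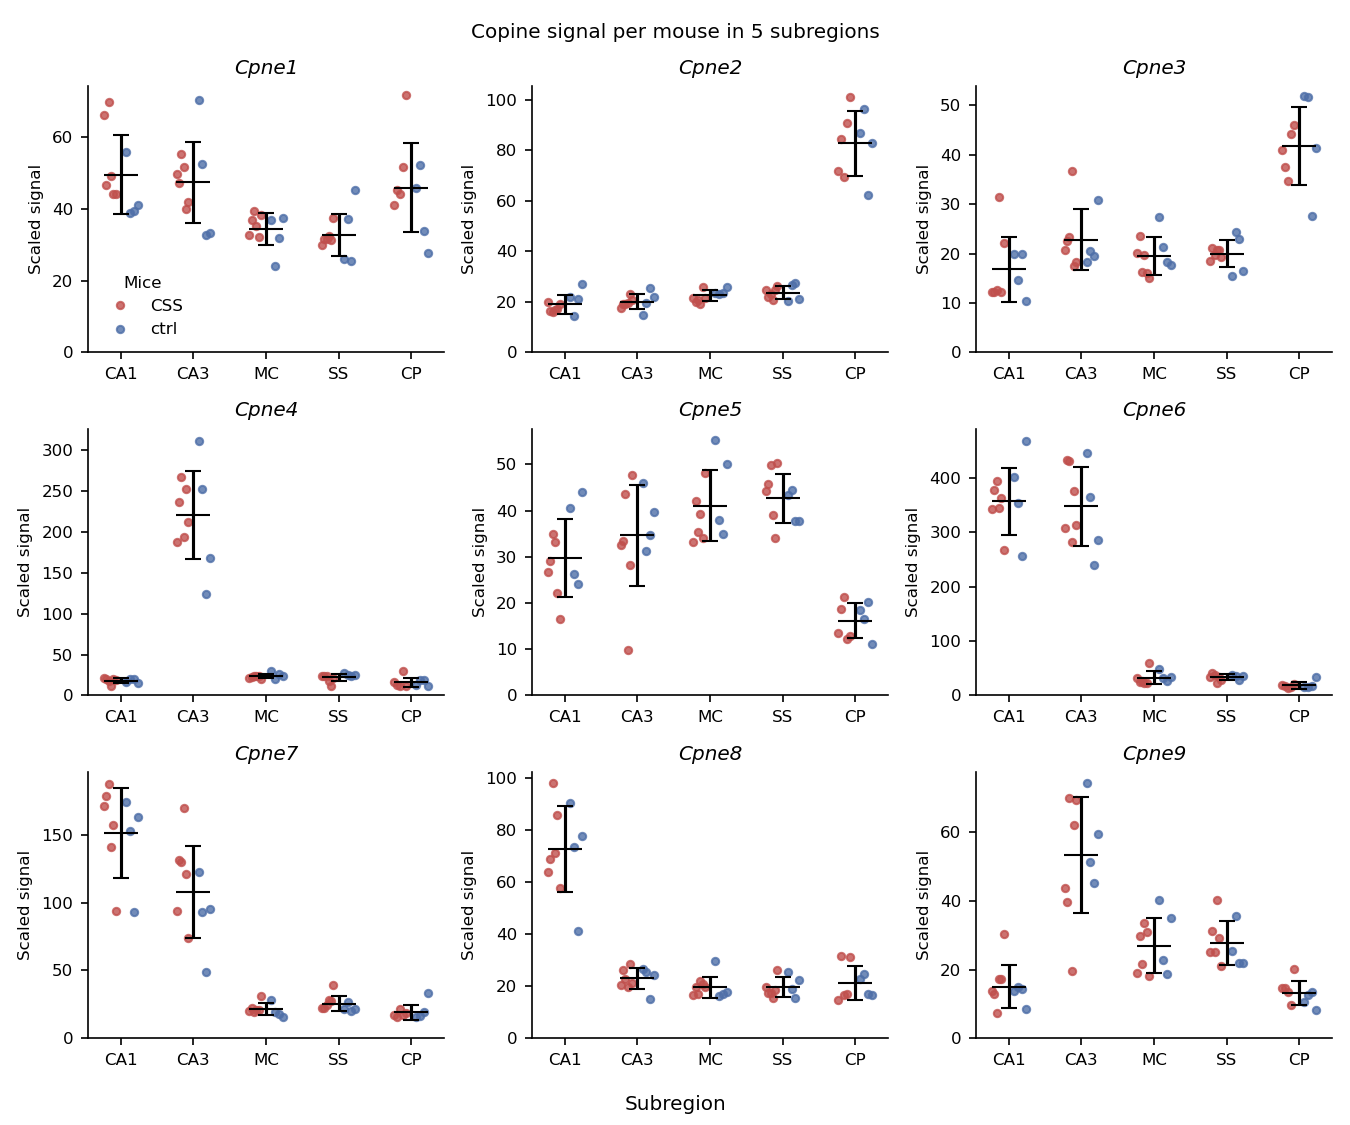
Scaled signal of the 9 copines (vertical axis, linear from 0) in each subregion, with 1 point per mouse (mean of its AOIs) coloured by CSS or ctrl, and bars for the mean ± SD over 10 mice (9 in CP). Cpne4 stood at 124 to 311 in CA3 and at most 30.3 elsewhere, Cpne2 at 62.2 to 101 in CP and at most 27.5 elsewhere, and CSS and ctrl points overlap throughout.

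Cpne4 spans chr9:104566701-105034544 (mm10). In CA3 it had a signal of 220 ± 54.2 (mean ± SD, n = 10 mice), from 124 in mouse 1175 through a median of 224 to 311 in mouse 1151. In the other subregions its mean lay between 15.8 in CP and 23.8 in MC, and no mouse exceeded 30.3. These levels were near the negative probe, at 1.18 (CP) to 1.46 (MC) times its signal, and in CP Cpne4 exceeded it in 8 of 16 AOIs. Folds and the order among these subregions thus rest on values near the floor of the assay. The CA3 and the other values did not overlap. Cpne4 was 11.6-fold higher in CA3 than in CA1 on the log2(signal + 1) scale (a log2 difference of 3.53, 2.58 to 4.17 over 10 of 10 mice), which is a description, since this gene was chosen for it. Among the remaining 4 subregions in the order MC, SS, CA1 and CP, no 2 neighbours differed by more than 1 SD of the within-mouse difference.

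Cpne6, the postsynaptic copine, was high in both hippocampal fields. Its signal was 357 ± 62.1 in CA1 (255.8 to 468) and 349 ± 72.8 in CA3 (241 to 447), against 32.8 ± 12.3 in MC, 33.3 ± 5.70 in SS and 18.4 ± 5.82 in CP. In CP it averaged 1.41 times the negative probe. CA1 and CA3 did not differ beyond their spread, and every hippocampal value exceeded every cortical value, of which the highest was 60.1.

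Cpne7, at chr8:123117313-123135185, is known mainly for its part in tooth dentin formation. It followed Cpne6 in its broad pattern but not in its order, at 151 ± 33.1 in CA1 (93.1 to 187) and 108 ± 34.0 in CA3 (48.6 to 169). It stood at 25.6 ± 5.68 in SS, 21.6 ± 4.65 in MC and 19.4 ± 5.44 in CP, and those 3 were not separable beyond 1 SD. There it averaged 1.33 (MC) to 1.63 (SS) times the negative probe. CA1 exceeded CA3 in 9 of 10 mice.

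Cpne8 was high in CA1 alone, at 72.9 ± 16.5 with a lowest mouse of 41.3, while the means elsewhere lay between 19.7 and 23.1 and the highest mouse there reached 31.8. Outside CA1 it averaged 1.21 (MC) to 1.66 (CA3) times the negative probe. Its CA3 value was lower than its CA1 value in all 10 mice (a log2 difference of -1.68). Cpne9 showed the opposite order within the hippocampus, at 53.4 ± 16.9 in CA3 (19.6 to 74.2) against a median of 14.1 in CA1 (SD 6.26, 7.52 to 30.3), and its CA3 value was the higher in all 10 mice (1.75). Cortex lay between, with Cpne9 at 27.0 ± 7.94 in MC and 27.7 ± 6.33 in SS. Cpne9 in CP, at 13.1 ± 3.48, was at the level of the negative probe (0.985 times its signal) and exceeded it in only 6 of 16 AOIs. Beside Cpne6 and Cpne7, high in both hippocampal fields, Cpne8 was thus high in CA1, and Cpne4 and Cpne9 in CA3.

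Cpne5, a gene linked to neurite growth, had its highest means in cortex, 42.6 ± 5.40 in SS and 41.0 ± 7.68 in MC. Its mean was 34.7 ± 10.9 in CA3, 29.8 ± 8.45 in CA1 and 16.1 ± 3.78 in CP, and of the steps in this order only that from CA1 to CP exceeded 1 SD. Cpne2 had its high level in CP, at 82.8 ± 12.9, and 19.0 to 23.7 in the other subregions. Cpne3, which binds the receptor ErbB2, was also highest in CP, at 41.8 ± 7.85, with means of 16.8 to 22.8 elsewhere. Cpne1, a broadly expressed member linked to NF-kappaB signalling, ranged only from 32.8 in SS to 49.5 in CA1. Its gene body on chromosome 2 overlaps Rbm12, which was measured by its own probes, and whether reads of that gene enter the Cpne1 value was not tested.

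To ask which copines set the choroid plexus apart from neural tissue, CP was compared with the mean of CA1, CA3, MC and SS within 9 mice. Cpne4 was left out of the count, because the neural mean includes CA1 and CA3, the pair it was chosen on. By limma with Benjamini-Hochberg adjustment, 7 of the other 8 copines passed an adjusted p of 0.05, where 40.2% of all genes did. Cpne2 and Cpne3 were the 2 that were higher in CP (background 20.6%). Cpne2 rose 3.83-fold (log2 1.94, SE 0.10, adjusted p = 1.34e-12 by limma) and Cpne3 2.06-fold (1.05, SE 0.11, adjusted p = 6.19e-08), each in 9 of 9 mice.

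The other 5 that passed were lower in CP, against a background of 19.6%. The largest was Cpne6, 5.72-fold lower (log2 -2.52, SE 0.11), followed by Cpne7 (-1.41, SE 0.13), Cpne5 (-1.16, SE 0.12) and Cpne9 (-0.97, SE 0.12). Each of these 4 was lower in 9 of 9 mice. Cpne8 differed least, by -0.41 (SE 0.12, lower in 8 of 9 mice, adjusted p = 0.00804 by limma), and missed the threshold after quantile normalization (adjusted p = 0.0519). Its CP mean of 21.4 was near those of CA3 (23.1), MC (19.7) and SS (19.8), and the neural mean includes its CA1 level of 72.9. Cpne7 in CP, at 19.4, was likewise near MC (21.6) and SS (25.6), and its neural mean includes the high hippocampal levels. Cpne9 was not separable between CP and CA1, where CA1 was higher by 0.07 (SD 0.48) and in 5 of 9 mice. Its neural mean includes its CA3 level of 53.4. Cpne6 was higher in MC than in CP in 9 of 9 mice, but by 0.83. Its larger pooled difference includes the high levels of CA1 and CA3. Cpne1 stood at 0.15 (SE 0.11, 95% interval -0.07 to 0.38) and did not pass. The median of the 8 copines was -0.69 against -0.03 over all genes. Cpne4, as a description, stood at -1.31, a value that includes its high CA3 level.

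The same comparison over 40 other C2-domain genes, such as synaptotagmins and protein kinases C, called 7 higher and 25 lower in CP (20.6% and 19.6% of all genes), with a median of -0.82. Those lower in CP included the vesicle calcium sensor Syt1 (-4.46), the kinase Prkcb (-3.58) and Rph3a (-3.11), a Rab3 effector. Of 10 genes whose proteins have been reported to bind a copine, 5 were higher and 3 lower in CP (against the same shares of all genes), with a median of 0.13. They included Ywhag, a 14-3-3 protein (-2.48), the kinase Map2k1 (-1.80), the sorting receptor Sort1 (-1.26) and the NF-kappaB subunit Rela (0.64).

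CA1 was compared with cortex (the mean of MC and SS) in 10 mice. Cpne4 was again left out of the count, since CA1 is a side of the contrast it was chosen on. Of the other 8 copines, 7 passed by limma, 4 higher and 3 lower, where 48.3% of all genes did. Higher in CA1 (background 33.9%) were Cpne6 at 10.7-fold (log2 3.42, SE 0.08), Cpne7 at 6.03-fold (2.59, SE 0.11), Cpne8 at 3.56-fold (1.83, SE 0.10) and Cpne1 at 1.45-fold (0.53, SE 0.10), all in 10 of 10 mice. The adjusted p was 3.76e-25 for Cpne6 and 1.73e-05 for Cpne1 by limma.

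Lower in CA1 (background 14.4%) were Cpne9 (-0.90, SE 0.17), Cpne5 (-0.52, SE 0.11) and Cpne2 (-0.32, SE 0.12), each in 9 of 10 mice. As a multiple of the negative probe, Cpne2 averaged 1.479 in CA1, 1.376 in MC and 1.498 in SS. On that scale it was not below both cortical areas. Cpne9 averaged 1.15 in CA1, 1.66 in MC and 1.75 in SS, and exceeded the probe in only 10 of 18 CA1 AOIs. Cpne5 averaged 2.33, 2.53 and 2.705. These multiples were not tested. Cpne3 was at -0.30 (SE 0.14, limma adjusted p = 0.0898) and did not pass. The median of the 8 copines was 0.12 against -0.04 over all genes. Cpne4, as a description, stood at -0.34 (-0.77 to 0.22 over the mice). Cpne2 lost its call without mouse 1162 or mouse 1168 (adjusted p of 0.0582 and 0.0768 by limma).

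The call of Cpne1 depended on the scaling. The authors' equal medians left 70.2% of the genes called in CA1 against cortex on the higher side. That share was 54.0% after quantile normalization, 41.7% by edgeR on the recovered counts and 22.7% after scaling to equal 75th percentiles, which moved the median of all genes to -0.45. Cpne1 was at 0.10 (limma adjusted p = 0.417) after quantile normalization and at 0.10 (0.288) after 75th percentile scaling. The other 6 calls kept their direction and passed under each of these 3 settings.

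Of the C2-domain genes, 19 were higher and 11 lower in CA1 than in cortex (of 40, median 0.02), where 33.9% of all genes were higher and 14.4% lower. They included Doc2b (3.27), a calcium sensor of spontaneous release, and the kinase Prkca (2.25), with Rph3a lower (-2.06). Among the 10 partner genes, 8 were higher and 0 lower by limma (against the same 33.9% and 14.4%), with Sort1 at 1.79.

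CA3 was compared with cortex in the same way, leaving Cpne4 out of the count because it was chosen for its CA3 level. Of the other 8 copines 5 passed, where 33.8% of all genes did. Higher in CA3 (background 27.5%) were Cpne6 at 10.4-fold (log2 3.37, SE 0.09, adjusted p = 2.46e-21 by limma), Cpne7 at 4.01-fold (SE 0.12 on the log2 scale), Cpne9 at 1.80-fold (0.84, SE 0.16) and Cpne1 at 1.37-fold (0.46, SE 0.11). Cpne6 and Cpne7 were higher in 10 of 10 mice, and Cpne9 and Cpne1 in 9. Cpne4, as a description, stood at 3.19 (2.27 to 3.79 over the mice). Cpne1 lost its call after quantile normalization (0.16, limma adjusted p = 0.228) and 75th percentile scaling (0.18, 0.0746).

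Lower in CA3 (background 6.23%) was Cpne5 (-0.36, SE 0.13, 9 of 10 mice, adjusted p = 0.0302 by limma). This value rested in part on mouse 1163, whose only CA3 AOI had a Cpne5 signal of 9.81 against 28.3 to 47.6 in the other 9 mice. Without that mouse the difference was -0.19 (limma adjusted p = 0.10), and the call was also lost without mouse 1157 (0.0574) or mouse 1168 (0.0559). Without the mouse block in the model the limma adjusted p was 0.0905. Cpne2 (-0.21), Cpne3 (0.17) and Cpne8 (0.15) did not pass. The share of called genes on the higher side was 81.5% as scaled by the authors, 55.6% after quantile normalization, 48.0% by edgeR and 27.0% after 75th percentile scaling, where the median gene stood at -0.27.

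In the C2-domain list 15 of 40 genes were higher and 7 lower in CA3 than in cortex (median 0.05), where 27.5% of all genes were higher and 6.23% lower. Prkca was the furthest from 0 of those called (2.89). Of the partner genes 8 of 10 were higher (against the same 27.5%; median 0.64), among them Sort1 (1.55), Map2k1 (1.37) and Ywhag (1.34). Lists and partners were, like the family, chosen with earlier results of these data known.

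The 2 cortical areas were not distinguished by any copine. Between MC and SS limma called 0% of all genes, with 1100 at an unadjusted p under 0.05, and edgeR called 4 higher and 10 lower, none of them a copine. Cpne7 alone among the copines had an unadjusted p under 0.05, at -0.26 (SE 0.10, lower in MC in 8 of 10 mice). The 95% intervals of the 9 copines lay between -0.47 and 0.33.

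Cpne7 was higher in p16 high than in p16 low AOIs of the hippocampus and cortex, the contrast it was chosen on. The mean log2 difference was 0.46, a 1.38-fold higher signal, and all 10 mice had a positive value, from 0.09 to 1.07. The other 8 copines had means between -0.11 (Cpne9) and 0.13 (Cpne6), against 0.03 for the median gene, and next to Cpne7 came Cpne6, positive in 8 of 10 mice.

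By subregion, Cpne7 differed between the labels by 0.71 in CA1 (7 of 8 mice) and 0.91 in CA3 (7 of 8), and by 0.22 in MC (6 of 9) and 0.12 in SS (6 of 9). In CA1 the p16 high AOIs had a signal of 111 to 263 with a median of 197, and the p16 low AOIs 74.8 to 171 with a median of 114. In CA3 the p16 high AOIs ran from 62.2 through 151 to 211 and the p16 low AOIs from 33.3 through 66.2 to 125. In both fields the ranges overlapped, and in CA3 mouse 1152 went against the others, at 62.2 in its p16 high and 125 in its p16 low AOI. The negative probe also moved with the label. It was lower in the p16 high AOI of every CA3 pair (12.5 against 14.0 in mouse 1151). In CA1 it was lower in all pairs (11.2 against 13.8 in mouse 1162) but those of mice 1157 and 1163. All AOIs were scaled to the same gene median, and the part of the probe level in the Cpne7 difference was not tested.

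**Figure D2:**
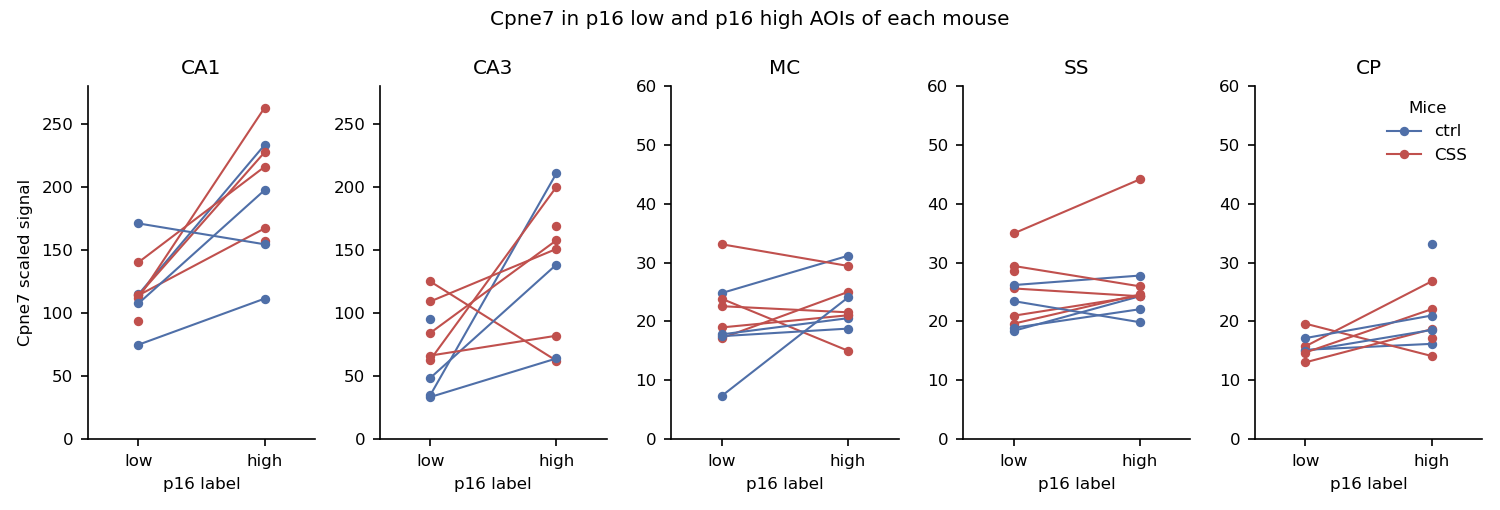
Cpne7 scaled signal in the p16 low and p16 high AOIs of each subregion; a line joins the AOIs of a mouse and an unjoined point is a mouse with 1 AOI there, with colours for CSS and ctrl mice. The vertical axis runs to 280 in CA1 and CA3 and to 60 in MC, SS and CP; 7 of 8 lines rise in CA1 and in CA3.

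The CP was not part of the contrast that chose Cpne7. There its p16 difference was 0.28 (SE 0.19, 95% interval -0.12 to 0.68), higher in the p16 high AOI of 6 of 7 mice, with an adjusted p of 0.889 by limma. The p16 high CP AOIs had a signal of 14.1 to 33.1 (median 18.7, n = 9) and the p16 low ones 13.0 to 19.6 (median 15.2, n = 7), levels near the negative probe. Limma called 0% of all genes in this comparison, with 1046 genes and 0 copines at an unadjusted p under 0.05, and edgeR called 2 genes higher and 4 lower, none of them a copine.

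Whether the p16 difference itself differed between hippocampus and cortex was tested in 10 mice, and limma called 0% of all genes (edgeR 0 as well), with 1746 genes at an unadjusted p under 0.05. Cpne4, Cpne8 and Cpne9 were among those 1746. The p16 difference was larger in the hippocampus for Cpne4 (by 0.60, SE 0.19) and Cpne8 (0.46, SE 0.21) and smaller for Cpne9 (-0.44, SE 0.20). Their adjusted p-values by limma lay between 0.509 and 0.557, so none passed. Cpne7, at 0.56 (SE 0.18), is a description here, since the contrast that chose it rests on the same p16 differences.

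The p16 difference was also compared between CSS and ctrl mice. Limma called 0% of all genes and edgeR 0, with 654 genes and 0 copines at an unadjusted p under 0.05. Cpne9 differed by 0.46 (SE 0.24, 95% interval -0.04 to 0.96). Cpne7, again as a description, had a mean p16 difference of 0.34 in CSS and 0.65 in ctrl mice, a difference of -0.31 (SE 0.16, -0.63 to 0.01).

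The CA3 AOIs were not alike in the markers of neighbouring CA2, and this moved with the p16 label and with several copines. The 3 CA2 genes listed (Amigo2, Rgs14 and Pcp4, all measured and none at 0) summed to 179 to 1529 in the p16 high CA3 AOIs (median 998) and to 83.8 to 747 in the p16 low ones (median 210). Pcp4 had a median of 569 against 96.8, Rgs14 332 against 91.9 and Amigo2 93.4 against 20.8. In 6 of 8 mice the sum was higher in the p16 high AOI (mean log2 difference 1.34, SD 2.12). In mouse 1152 the sum was 181 in the high and 747 in the low AOI, and Cpne7 was lower in the high AOI. In mouse 1170 it was 315 and 697, while Cpne7 was 82.0 and 66.2. The same 3 genes summed to 228 to 602 in the cortical AOIs.

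Over the 18 CA3 AOIs, log2 Cpne7 correlated with the log2 CA2 sum at r = 0.89 (0.96 in the 9 p16 high and 0.72 in the 9 p16 low AOIs; 0.86 in 16 AOIs without mouse 1175). Cpne8 did so at r = 0.82, while Cpne5 and Cpne9 ran against it at -0.58 and -0.59. These are descriptions over AOIs that share mice in pairs, and all genes of an AOI share its scaling and depth. The part of the CA2 markers in the p16 difference of Cpne7 in CA3 was not tested.

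In CA1 the same 3 genes summed to 140 to 219 in p16 high and 137 to 202 in p16 low AOIs, a mean within-mouse log2 difference of 0.01 (SD 0.22), and Cpne7 differed there by 0.71. Other lists moved with the label in CA1. The 6 CA1 pyramidal genes were higher in the p16 high AOI of 8 of 8 mice (0.22, SD 0.16), as were 5 excitatory neuron genes (0.20, SD 0.14). Cpne7 and Cpne8 correlated with the CA1 pyramidal sum at r = 0.64 and 0.83 over 18 CA1 AOIs, and at 0.465 and 0.642 over 16 without mouse 1175. In CA3 the excitatory list was higher in 7 of 8 mice (0.27, SD 0.24) and the 4 CA3 pyramidal genes in 6 of 8 (0.25, SD 0.25). The 7 inhibitory neuron genes were lower there in 7 of 8 mice (-0.48, SD 0.36), as were the 6 astrocyte genes (-0.19, SD 0.34). The part of these lists in the Cpne7 difference was not tested.

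**Figure D3:**
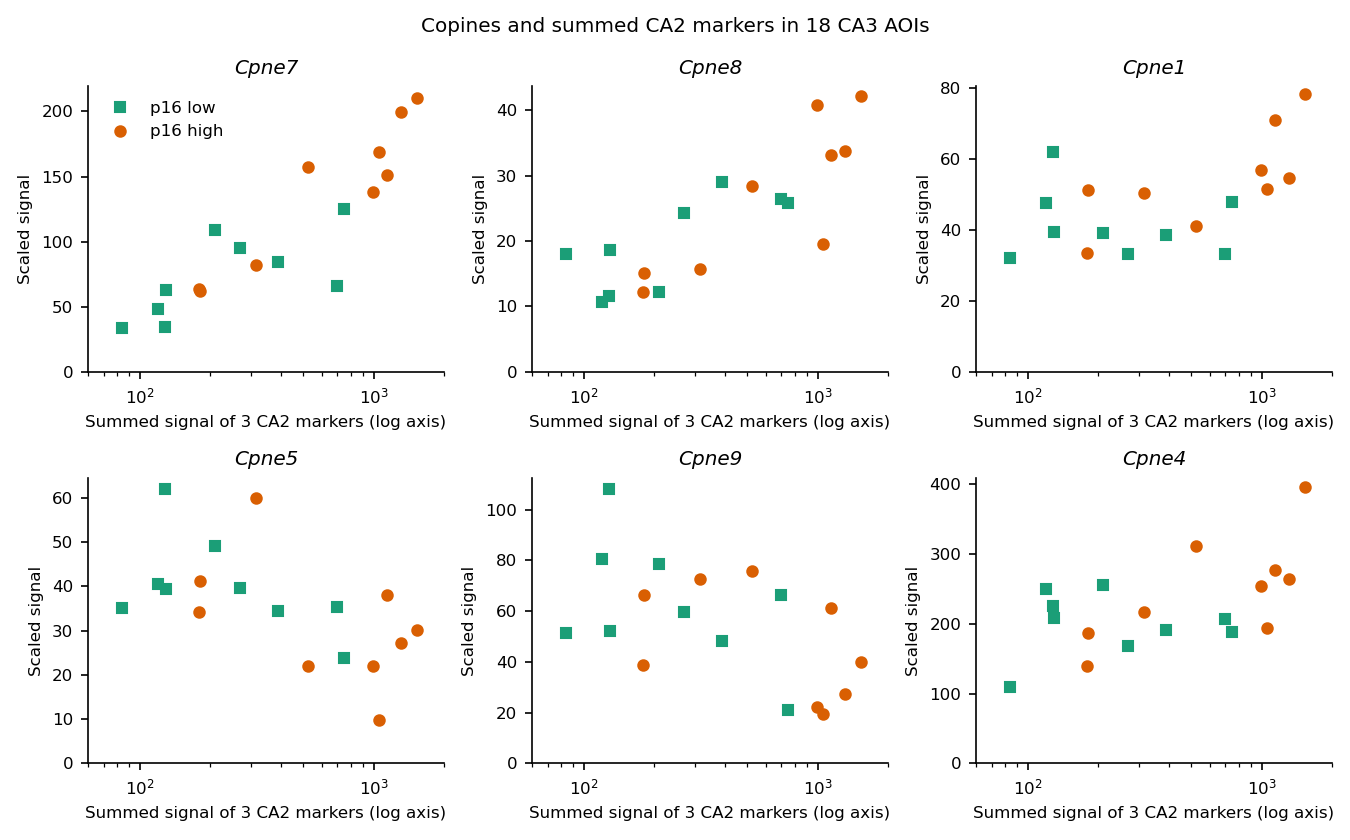
Scaled signal of 6 copines (vertical axes, linear from 0) against the summed signal of Amigo2, Rgs14 and Pcp4 (horizontal log axis) in the 18 CA3 AOIs, with circles for p16 high and squares for p16 low. Cpne7 rises from 33.3 to 211 along the axis, and Cpne9 is at 19.6 to 61.3 in the 6 AOIs with the highest sums, where Cpne5 is at 9.81 to 38.0.

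The copines also varied with each other inside CA3. Over the 18 AOIs Cpne5 correlated with Cpne9 at r = 0.78 and Cpne7 with Cpne8 at 0.71, while Cpne7 ran against Cpne5 (-0.59) and Cpne9 (-0.55). Without mouse 1175 these were 0.79, 0.74, -0.65 and -0.65 over 16 AOIs. AOI by AOI, the p16 high area of mouse 1151 had a Cpne7 signal of 211, a Cpne8 signal of 42.1 and a Cpne9 signal of 40.1. The p16 low area of the same mouse had 34.7, 11.6 and 108. Mouse 1168 had 138, 40.7 and 22.1 in its p16 high and 48.4, 10.7 and 80.4 in its p16 low area. Not all mice moved in this way. Mouse 1169 had 158, 28.4 and 75.7 in its p16 high and 84.1, 29.0 and 48.3 in its p16 low area, and mouse 1170 had 82.0, 15.8 and 72.5 against 66.2, 26.5 and 66.2. In the p16 high area Cpne7 was the higher in 7 of 8 mice, Cpne8 in 4 and Cpne9 in 3. In CA1 the pattern was shared in part. Over its 18 AOIs Cpne7 went with Cpne8 at r = 0.73 and ran against Cpne9 at -0.36, as in CA3. Cpne5 had the opposite signs there, at 0.56 with Cpne7 and -0.53 with Cpne9. Cpne6 went with Cpne7 at 0.81, with Cpne8 at 0.77 and with Cpne5 at 0.75 in CA1, against 0.23, -0.09 and 0.32 in CA3. These CA1 values include mouse 1175.

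Since the CA2 sum was lower in most p16 low CA3 AOIs, CA3 was also set against cortex with AOIs of 1 label at a time, a choice made after seeing the data. With p16 low AOIs alone 3 of 8 copines passed by limma, where 24.0% of all genes did (21.0% higher, 3.05% lower): Cpne6 (3.34), Cpne7 (1.57) and Cpne9 (1.26), all higher in CA3. Cpne5 was at -0.09 there (adjusted p = 0.718) and Cpne1 at 0.30 (0.111). With p16 high AOIs alone 6 of 8 passed, where 30.0% of all genes did (25.7% higher, 4.27% lower). These were Cpne6 at 3.35, Cpne7 at 2.28, Cpne9 at 0.82, Cpne1 at 0.66, Cpne8 at 0.49 (SE 0.19, limma adjusted p = 0.0486) and Cpne5 at -0.40. Cpne8 differed in sign between the labels, at -0.24 (SE 0.18, adjusted p = 0.406 by limma) with p16 low AOIs alone, and the other 5 did not. The difference between the labels was not tested.

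No copine was called between CSS and ctrl mice. Over all subregions (6 against 4 mice) limma called 0% of all genes, with 356 genes and 0 copines at an unadjusted p under 0.05, and edgeR called 0. The furthest copine from 0 was Cpne7 at 0.19 (SE 0.11, 95% interval -0.03 to 0.42, limma adjusted p = 1.0), followed by Cpne5 at -0.14 (-0.37 to 0.09). The 9 intervals together ran from -0.37 to 0.42.

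**Figure D4:**
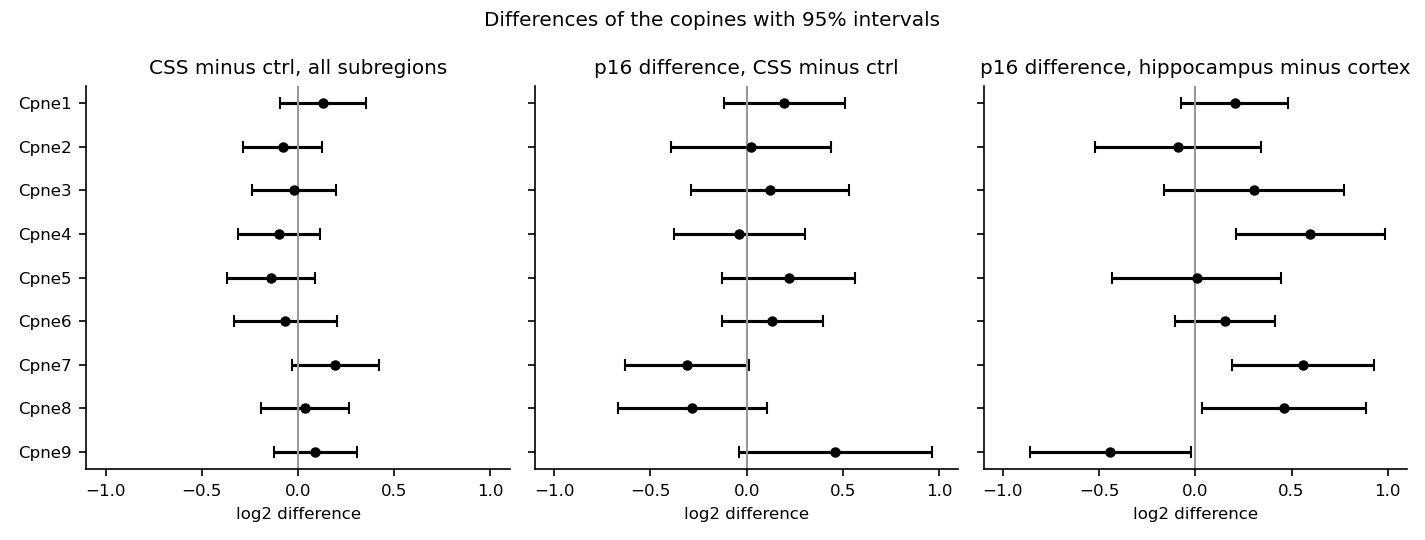
Differences of log2(signal + 1) for the 9 copines (points) with 95% intervals (bars) between CSS and ctrl mice over all subregions, in the p16 difference between CSS and ctrl mice, and in the p16 difference between hippocampus and cortex. All 9 intervals in each of the first 2 panels include 0, and in the third those of Cpne4, Cpne7, Cpne8 and Cpne9 do not. Cpne7 was chosen on its p16 difference, so its values in the panels of that difference are a description.

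Subregion by subregion the result was the same in CA1, CA3, MC, SS and CP, with 0% of all genes called by limma in each and 0 copines at an unadjusted p under 0.05 among 551 to 728 genes. By edgeR at most 9 genes were called in a subregion (CA3), none of them a copine. In CA3, Cpne7 stood at 74.1 to 169 in the 6 CSS mice and at 48.6, 93.4, 94.9 and 123 in the 4 ctrl mice, a log2 difference of 0.37 (SE 0.23, 95% interval -0.09 to 0.83) with overlapping groups. Cpne1 in CP was at 0.35 (SE 0.20, -0.07 to 0.77), Cpne4 in SS at -0.31 (SE 0.18, -0.69 to 0.06) and Cpne5 in CA1 at -0.33 (SE 0.22, -0.76 to 0.11). The intervals within a subregion were wider than those over all subregions, as for Cpne9 in CA1 at 0.32 (-0.29 to 0.93).

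For each copine the genes of most similar pattern over the 90 AOIs were listed by Pearson's r of log2 signal, which here mostly reflects the subregions. Cpne4 was closest to Bok (0.93), Lsm11 (0.89) and Grik4 (0.88), of which Bok and Grik4 are in the CA3 marker list. Cpne6 was closest to Dock4, Epha6 and Ptk2b (0.97 each), and Cpne7 to Nr3c2, the mineralocorticoid receptor (0.94), Ppm1e (0.94) and Lrrn2 (0.93). Cpne2 was closest to Ecrg4 (0.92), Mgp (0.92) and Calml4 (0.91), and Cpne8 to Doc2b (0.87), Map4 (0.86) and Bcl6 (0.85). Lower values were reached by Cpne5 (Gnal, 0.78), Cpne9 (Ephb1, 0.78), Cpne3 (Hadhb, 0.77) and Cpne1 (Swi5, 0.74).

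After subtracting each subregion's mean the highest correlations were weaker. Cpne7 was closest to Crym (0.67), Pfn1 (0.66) and Cotl1 (0.66), Cpne6 to Amph (0.65), Lancl1 (0.63) and Prkar1b (0.62), and Cpne8 to Tmsb4x (0.60), Polr2g (0.59) and Drap1 (0.58). For Cpne2, Cpne3, Cpne4 and Cpne9 the closest gene reached 0.43 to 0.49, and for Cpne5 (Slc30a3) and Cpne1 (Sema6b) 0.56 and 0.57.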

How the data were processed

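The deposited table held 1 value per gene and AOI and was mapped to 10 mice by the labels, with all 90 columns of values used. The deposited signal was scaled by the authors to an equal gene median per AOI, which the values themselves show, on build mm10 per the submitters' processing notes. The tools applied to the reads were not given in the sources used here. Probe counts were recovered as whole multiples of each AOI's step (at least 99.975% of the values within 0.01 of a whole number), and served the edgeR 4.0.16 alternative. Of the 19962 gene names, 19822 matched RefSeq.

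The mouse was the replicate. AOI values were averaged as log2(signal + 1) per mouse and condition, so folds are understated for low signals. All genes were fitted with limma 3.58.1 in R 4.3.3 (lmFit, eBayes with a trend), 2-sided, with no filter on low signal. Comparisons within mice had the mouse as a fixed block, and used mice with all the subregions compared. The p16 comparisons used the 41 pairs of AOIs from 1 mouse and subregion (34 in hippocampus and cortex); deviations of paired AOIs correlated at a median of 0.08, with 16 pairs above 0.1. For CSS against ctrl, AOIs were centred within subregion and p16 label and averaged per mouse. A gene with a Benjamini-Hochberg adjusted p under 0.05 over all genes was called; intervals are 95%. Nothing in the labels speaks of separate experiments, so p-values measure the spread between these mice.

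The fits were run on simulated counts with known changes. Those counts were drawn for each AOI on its own, with no differences between mice. They therefore could not check the use of the mouse as the replicate. Members, gene lists and tests were chosen with earlier results of these data known. All 9 copines are named, with the 3 genes of highest correlation to each and up to 4 called members of a list. The fits of the p16 difference between hippocampus and cortex and between CSS and ctrl included Cpne7, whose values there are descriptions. Cpne4 was planned to be left out of the count in CA3 against cortex, and was then also left out in CP and CA1, after the data were seen. A list member that this rule names is not reported here.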

Additional observations from a re-analysis of the deposited data

Results flagged for a closer look

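In 162 groups of AOIs (1 copine, subregion, p16 label and stress group, of 4 to 6 AOIs), 7 held an AOI far from the rest by Dixon's criterion, which chance alone meets in about 1 of 20 groups. The flags were thus no more frequent than that rate, and they are listed as a description. Mouse 1170 accounted for 3 of the 7. Its Cpne6 signal in MC was 61.3 in the p16 high AOI, against at most 32.8 in the other CSS mice, and 58.8 in the p16 low AOI, against at most 32.2. Its Cpne7 signal in SS was 44.1 in the p16 high AOI, against at most 26.0. Those 3 AOIs had 305461, 390340 and 231055 recovered counts.

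Mouse 1163 had a Cpne3 signal of 41.0 in its p16 high CA1 AOI, against at most 14.2 in the other CSS mice. Mouse 1162 had a Cpne4 signal of 256.2 in its p16 low CA3 AOI, against at most 208, and a Cpne5 signal of 60.7 in its p16 high SS AOI, against at most 48.1. Among ctrl mice, mouse 1151 had a Cpne8 signal of 38.6 in its p16 low MC AOI, against at most 17.2. The explanation of these values was not tested.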

How the results depend on the processing

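Of 19 copine values that passed, run under 312 alternative settings in all, 299 kept their direction and stayed past the threshold, 13 fell short of it and 0 reversed. With p16 low AOIs alone, an alternative added after seeing the data, the count of copines called in CA3 against cortex was 3 in place of 5. That count under each other alternative, and the counts of the other 12 tested comparisons, stayed within 1.5 times of the main one. With each mouse left out in turn, Cpne5 in CA3 against cortex was nearest to 0 without mouse 1163, at -0.19. Without the replicate block (mouse) it was -0.36 with a limma adjusted p of 0.0905, and the block changed no other call in the paired comparisons. With the mouse as a random replicate block over all AOIs, 0 copines were called between CSS and ctrl. With log2(signal + 10), which compresses low signals by construction, Cpne4 in CA3 against CA1 was 3.01 in place of 3.53 and Cpne8 -1.35 in place of -1.68, the latter at -1.37 after quantile normalization. Cpne4, not tested there, was at -2.02 by edgeR in place of -1.31 in CP and at -0.75 after 75th percentile scaling in place of -0.34 in CA1 against cortex. The values that did not pass include the descriptive ones of Cpne7 in the fits of the p16 difference. Of 95 values that did not pass, 43 changed sign in 1 or more settings and 3 passed in 1 or more: Cpne3 in CA1 against cortex (75th percentile scaling, edgeR, without mouse 1163, without mouse 1170), Cpne2 in CA3 against cortex (75th percentile scaling, edgeR) and Cpne8 in CA3 against cortex (p16 high AOIs alone).

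The limits lie in depth and number. Of all gene values, 22.7% did not exceed the AOI's negative probe, among them most of Cpne9 in CP, and the median count per gene was 6 to 82. With 6 CSS and 4 ctrl mice the precision is set by the number of animals. Areas without both p16 labels left 7 to 9 mice per subregion for p16.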
